A study of Mus musculus with 12 samples.

Results

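Immunoglobulin transcripts are described here across 12 RNA-seq libraries of dendritic cells cultured from mouse bone marrow, the cells that present antigen to T cells. The members are genes whose symbol names an immunoglobulin variable (V), joining (J) or constant segment, or Jchain, and that held at least 10 reads summed over the 12 libraries. Of 37991 genes in the count table, 107 carried such a symbol and 92 reached the limit. The read sum that chose them came almost wholly from wild-type libraries, so the members' presence in those libraries follows from the choice. Of the 15 symbols left out, 8 had no read, and the nearest to the limit were Ighv3-5 with 7 reads and Igkv17-134 with 6. Just inside the limit lay Igkv12-38 with 12 reads, Igkv8-26 with 16 and Igkv4-92 with 17. The members comprised 18 heavy-chain V genes, 54 kappa V genes, 3 lambda V genes, 9 J segments, 7 constant-region genes and Jchain.

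All cells were of strain C57BL/6 per the labels. Libraries labelled Vav1/2/3-/- (KO) lacked, by that label, the Vav exchange factors, which act downstream of Syk-coupled receptors. They comprised KO with curdlan (libraries 2, 4 and 5) and KO left unstimulated (1, 2 and 5). Wild-type (WT) libraries numbered 1, 2 and 4 were made with curdlan and likewise without it. Curdlan, a beta-glucan particle and ligand of Dectin-1, was given for 3 hours at a dose the labels write as 200 mg/ml, a unit that could not be checked. The labels do not say whether the libraries of a group came from separate animals or cultures, so p-values measure only the spread between these libraries.

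B cells build an antibody heavy chain by joining V, D and J segments in front of the constant region of IgM, and may later switch to IgG, IgE or IgA constant regions. A kappa or lambda light chain is built from V and J segments alone, and the J chain links IgM or IgA into secreted polymers. Unrearranged immunoglobulin loci can also be transcribed, from promoters upstream of the constant region, so reads of a constant region alone do not show a rearranged gene. Dendritic cells are not known for making antibody.

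Library totals ran from 41421718 to 61217861 reads. The 4 groups ran on 4 different sequencing lanes, and the lane cannot be told apart from the group. None of the 3 targeted genes was low in the libraries labelled KO. Vav2 measured 265 to 325 CPM (reads scaled to effective library size) in KO libraries, against 65 to 72.7 CPM in WT libraries. Vav1 measured 198 to 330 CPM in KO libraries and 131 to 179 CPM in WT libraries, and Vav3 measured 22.7 to 40 CPM in KO libraries and 21.6 to 36.9 CPM in WT libraries. Of 13 myeloid dendritic cell markers 12 were in the table, and they summed to 19650 to 25960 CPM in KO libraries and 12540 to 13310 CPM in WT libraries, with none of the 12 lacking reads. The 11 neutrophil markers summed to 6361 to 10960 CPM in KO libraries and 4192 to 6153 CPM in WT libraries, 10 of them called higher in KO in each state, where 21.1% of all genes were called higher without curdlan and 24.7% with it, and the part of this difference in the immunoglobulin values was not tested. Counts cover whole genes, so a deletion of some exons cannot be seen. Every direction between genotypes below therefore rests on the libraries' labels.

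The libraries labelled KO held very few immunoglobulin reads, and nearly all of those were Ighm, the constant region of IgM. Over the 6 KO libraries the 92 genes held 4685 reads, against 464571 reads over the 6 WT libraries. Per library they summed to 14.8, 18.1 and 12.8 CPM in KO with curdlan (libraries 2, 4 and 5) and to 16.6, 23.8 and 19.4 CPM in unstimulated KO (libraries 1, 2 and 5). The sums in WT were 1525, 1435 and 1072 CPM with curdlan and 1565, 1432 and 1132 CPM without it (libraries 1, 2 and 4). The highest KO library thus lay far under the lowest WT library in either state. In bulk RNA, fewer cells of a type and less RNA per cell cannot be told apart.

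**Figure D1:**
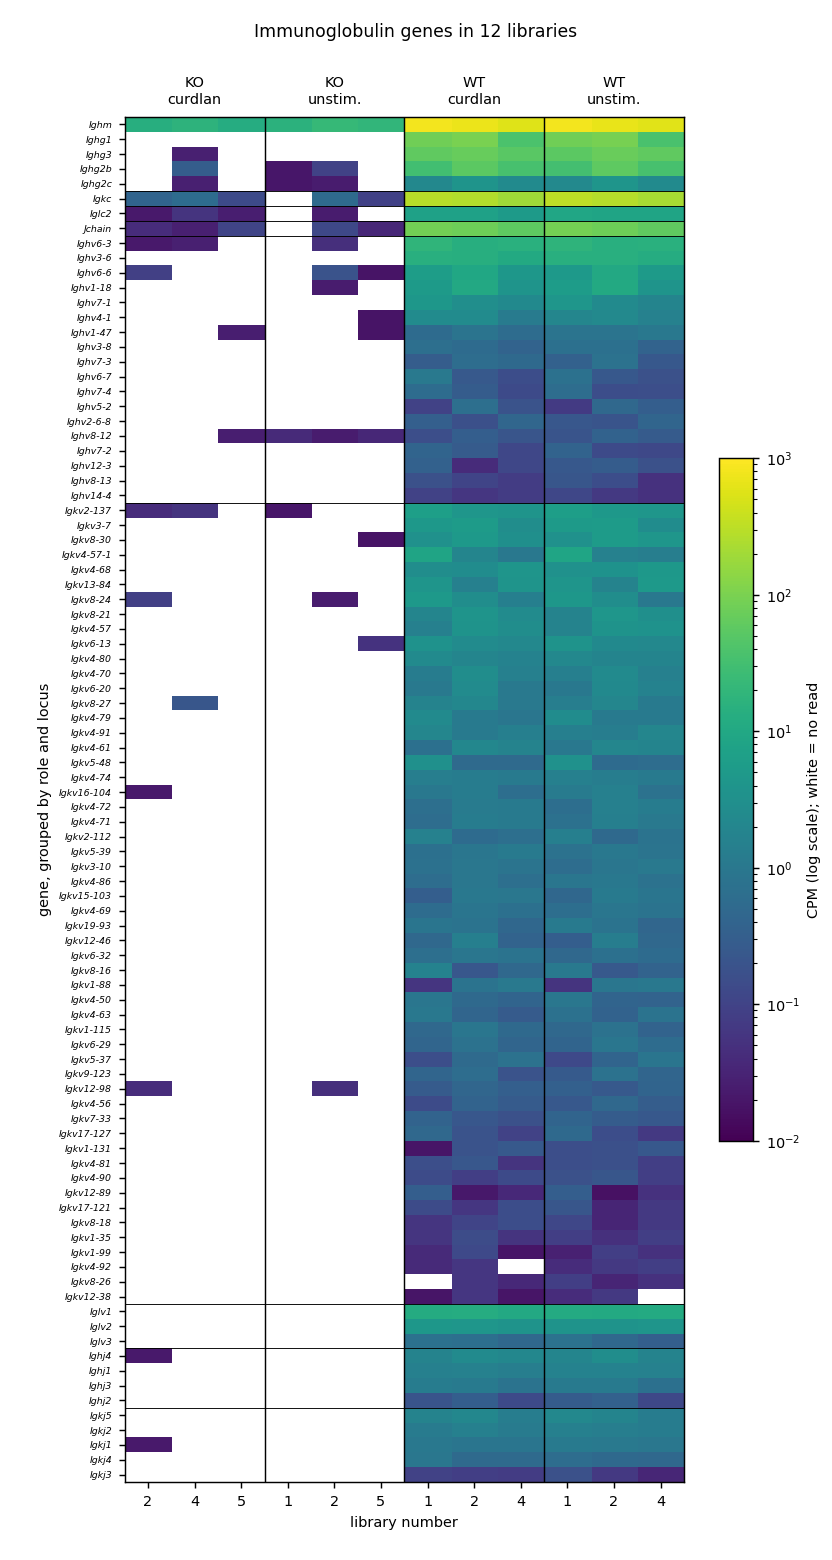
CPM of each of the 92 genes (vertical axis, grouped by role and locus) in each of the 12 libraries (horizontal axis, library numbers within KO with curdlan, KO unstimulated, WT with curdlan and WT unstimulated), on a log colour scale. White cells had no read: 70 genes were white across all 6 KO libraries, while 89 genes had a read in every WT library.

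Of the 92 genes, 77 passed the filter on low counts, most of them through the WT libraries alone. By quasi-likelihood F-test in edgeR, Benjamini-Hochberg adjusted over 18981 genes, all 77 were lower in KO without curdlan, where 23.3% of all genes were called lower, and all 77 were lower with curdlan, where 26.8% were. The KO and WT groups did not overlap for these 77 genes in either state, against 29.8% of all genes lower without overlap in unstimulated cells and 29.5% with curdlan. Because the members were chosen by reads that came from WT, nothing is read from these counts. With no filter on low counts 90 of the 92 passed as lower without curdlan and 88 with it. The genes that missed were Igkv12-89 and Igkv12-38 in both states, and Igkv4-92 and Igkv8-26 with curdlan. Of these, Igkv12-38, Igkv4-92 and Igkv8-26 were the members nearest to the read limit.

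Ighm (ENSMUSG00000076617, GRCm38 chromosome 12, 113418558 to 113422730, minus strand) encodes the mu constant region. It measured 13.9, 16.7 and 12.5 CPM in KO with curdlan and 16.5, 22.6 and 19.1 CPM in unstimulated KO. In WT it measured 806, 701 and 570 CPM with curdlan and 824, 683 and 585 CPM without. No KO library came near a WT library, yet Ighm was read in every KO library, by 466 to 1044 reads. Its log2 fold change, KO against WT, was -5.59 with curdlan (SE 0.20, adjusted p = 2.61e-09) and -5.17 without (SE 0.19, adjusted p = 3.05e-09, edgeR with Benjamini-Hochberg adjustment). The authors' deposited table gives -5.43 for the comparison with curdlan.

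The gamma constant regions, those of IgG, were nearly absent from KO. Reads of these regions alone do not show that a B cell had switched to IgG. Ighg1 (chromosome 12, 113325240 to 113330523) had no read in any KO library. In WT it measured 83.7, 97.1 and 37.7 CPM with curdlan and 83.7, 96 and 36.3 CPM without. Against a floor of 3 reads over the group, Ighg1 was at least 2862-fold lower in KO with curdlan and at least 3566-fold lower in unstimulated KO. WT library 4 was the low one in both states.

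Ighg3 had 1 read over the 6 KO libraries, in KO curdlan 4. Its WT libraries measured 61.5, 69.7 and 52 CPM with curdlan and 56.1, 71.5 and 61 CPM without. Ighg3 was thus at least 3054-fold lower in unstimulated KO. With curdlan the ratio of WT to KO was 7238, with a 95% counting interval of 1299 to 285900. Such counting intervals, here and below, cover counting error in the summed reads and not the spread between libraries. WT library 2 was the highest in both states.

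Ighg2b had the most KO reads of the gamma genes. It had 0, 11 and 0 reads in KO with curdlan (libraries 2, 4 and 5) and 1, 4 and 0 in unstimulated KO (1, 2 and 5). In WT it measured 30.9, 54.4 and 35.1 CPM with curdlan and 31.5, 58.1 and 34.8 CPM without. KO curdlan 4 alone held 11 of the 16 KO reads. The ratio of WT to KO was 431 with curdlan (counting interval 241 to 863) and 1202 without (515 to 3702). In the edgeR fit its log2 fold change with curdlan was -8.72. Without KO curdlan 4 no Ighg2b read remained in KO with curdlan, and without KO curdlan 2 the value was -8.05. The authors' deposited table, made with DESeq2, gives -0.83 for the same comparison and does not call it (adjusted p = 0.0964). Fold changes there come from another method and cannot be set directly against those of edgeR. Ighg1, for example, stands at -6.80 there and at -14.84 by edgeR, and with no KO read neither value is a measured fold. The cause of the difference for Ighg2b was not tested. Ighg2c, the lowest of the gamma genes, had 3 reads over all KO libraries, and in WT it measured 2.19, 3.94 and 2.43 CPM with curdlan and 2.3, 3.98 and 2.5 CPM without. Ighe, the IgE constant region, had no read in any library, and other heavy constant regions were not analysed here.

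Jchain (chromosome 5, 88519809 to 88527891, minus strand) lies outside the antibody loci. It had 2, 1 and 4 reads in KO with curdlan and 0, 5 and 2 in unstimulated KO. In WT it measured 85.6, 78.4 and 57.7 CPM with curdlan and 91.1, 78.4 and 59.6 CPM without. Jchain was present at a trace in 5 of the 6 KO libraries. The ratio of WT to KO was 1254 with curdlan (counting interval 608 to 3118) and 1619 without (785 to 4027). As a description, since its reads in WT put it among the members, the fitted log2 fold change of KO against WT was -10.24 with curdlan (SE 0.38) and -10.57 without (SE 0.38), while the authors' deposited table gives -8.50 with curdlan. The value in unstimulated cells was -11.80 without KO unstimulated 2 and -9.98 without KO unstimulated 1, and the value with curdlan was -10.89 without KO curdlan 5.

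Igkc (chromosome 6, 70726435 to 70726966, plus strand), the constant region of kappa light chains, had 19, 21 and 5 reads in KO with curdlan and 0, 22 and 5 in unstimulated KO. It measured 291, 271 and 194 CPM in WT with curdlan and 312, 276 and 217 CPM without. Libraries numbered 2 held about the same Igkc reads in both KO states, and so did libraries numbered 5. The ratio of WT to KO was 664 with curdlan (counting interval 496 to 911) and 1472 without (1011 to 2233). The fitted log2 fold change of KO against WT, again as a description, was -9.37 with curdlan (SE 0.46) and -10.47 without (SE 0.49). Without KO unstimulated 2, which held 22 of the 27 unstimulated KO reads, the unstimulated value was -12.39, and without KO unstimulated 1, which held none, it was -9.87.

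Iglc2, a lambda constant region, had 1, 2 and 1 reads in KO with curdlan and 0, 1 and 0 without. In WT it measured 7.4, 7.24 and 5.25 CPM with curdlan and 9.26, 8.18 and 8.2 CPM without. Set per kilobase of exon, Iglc2 made up 2.17% to 3.18% of the Igkc and Iglc2 levels together in the 6 WT libraries. Iglc2 is the lambda constant region among the members, and other lambda constant regions were not analysed here. The V genes of the set summed to 16.4 CPM for lambda and 65.7 CPM for kappa in WT with curdlan. Without curdlan they summed to 15.7 CPM for lambda and 68.7 CPM for kappa (group means of summed CPM). These sums cover 3 lambda and 54 kappa V genes, and V genes missing from the count table are left out. They therefore cannot be set directly against the share of Iglc2.

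**Figure D2:**
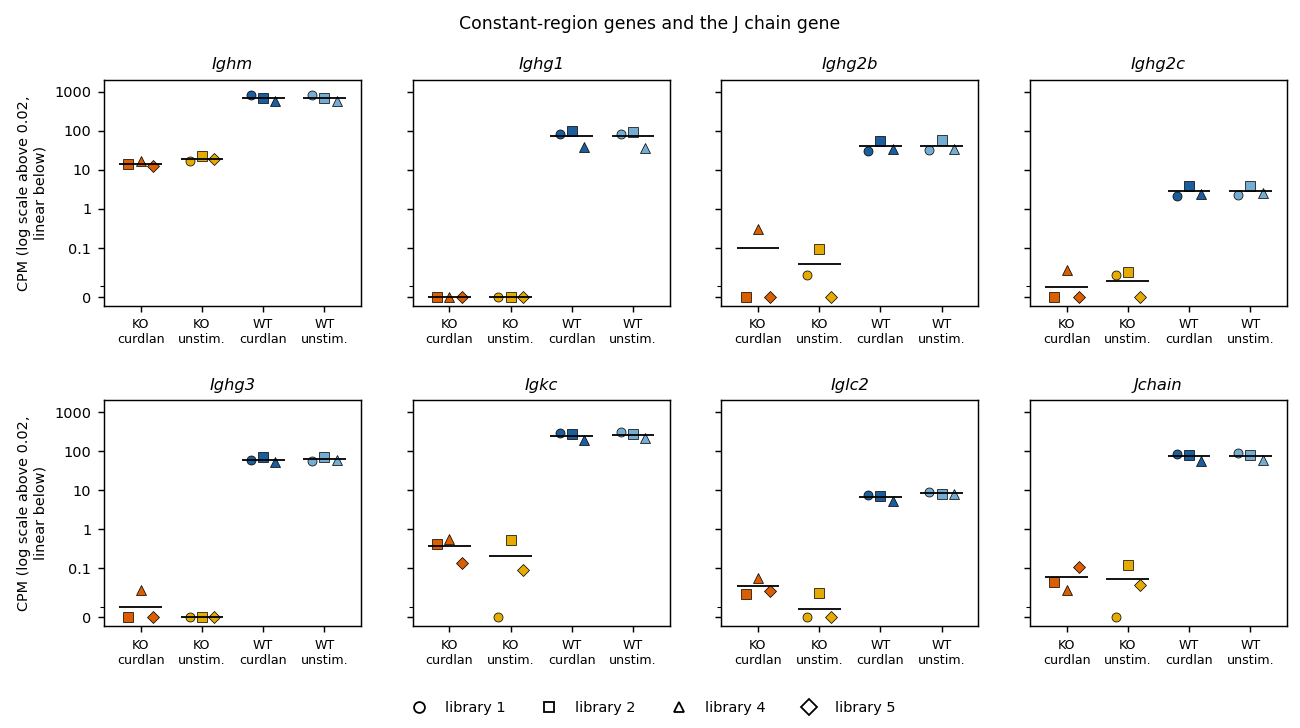
CPM of the 7 constant-region genes and Jchain (vertical axis, log scale above 0.02 and linear below) in KO with curdlan, KO unstimulated, WT with curdlan and WT unstimulated (horizontal axis), 1 point per library, shaped by library number, with a bar at the group mean. Ighm alone stays above 10 CPM in every KO library, and the others lie under 1 CPM there.

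The make-up of the immunoglobulin reads differed between the genotypes as well as their sum. Ighm made up 94.4%, 92.7% and 97.5% of them in KO with curdlan and 99.4%, 95.1% and 98.5% in unstimulated KO. In WT its share was 52.9%, 48.8% and 53.2% with curdlan and 52.7%, 47.7% and 51.7% without. The KO and WT shares did not overlap. Set per kilobase of exon, the Igkc level was 0.106, 0.123 and 0.038 times the Ighm level in KO with curdlan and 0, 0.0831 and 0.017 times in unstimulated KO. In WT it was 1.28, 1.37 and 1.21 times the Ighm level with curdlan and 1.34, 1.43 and 1.31 times without. V genes had 0.429 to 2.2 reads per 100 Ighm reads in KO with curdlan and 0.362 to 1.6 in unstimulated KO. In WT they had 18.2 to 20.3 with curdlan and 17.5 to 21.3 without. A KO library therefore held Ighm reads with few V or light-chain reads beside them. Apart from Ighm, the 91 other genes held 167 reads over all KO libraries.

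Many, not all, marker genes of B cells outside the antibody loci were lower in KO too. Of 20 B cell markers, 19 were in the table and were tested. Without curdlan 14 were lower in KO and none higher, where 23.3% of all genes were called lower and 21.1% higher. With curdlan 13 were lower and 1 higher, where 26.8% of all genes were called lower and 24.7% higher. The summed level of the list was 65.4 to 80.2 CPM in unstimulated KO and 149 to 176 CPM in unstimulated WT, and with curdlan it was 91.2 to 106 CPM in KO and 155 to 174 CPM in WT. Several of these genes are also expressed by dendritic cells, which the sums include. The log2 fold changes of the 19 genes, KO against WT, ran from -12.05 (Ms4a1, a B cell surface protein) to 0.23 (Cd22, an inhibitory B cell receptor) without curdlan, and from -8.71 (Pou2af1) to 1.91 (Cd72) with it. Those not called without curdlan were Cd22, Bank1 (0.10), Tnfrsf13c (-0.37), Cd72 (-0.27) and Ralgps2 (-0.20). Ebf1, a transcription factor of B cells, was lower by less than the sum of the list, at -0.97 without curdlan. The genes given next were chosen after their values were seen. Cd79a, a subunit of the B cell receptor, had 10, 5 and 3 reads in KO with curdlan and 7, 7 and 13 without, and in WT it had 870, 771 and 630 reads with curdlan and 1239, 982 and 750 without. Pou2af1, a coactivator of immunoglobulin promoters, had 0 to 2 reads per KO library and 550 to 863 reads per WT library. Ly6d had 0 to 3 reads per KO library and 280 to 574 per WT library. Ly6d also stood on a list of 11 plasmacytoid dendritic cell markers, all tested. Beside the all-gene shares above, 4 of that list were lower and 5 higher in KO without curdlan, and 5 were lower and 3 higher with it. The part of B cells or of other cell types in the immunoglobulin difference was not tested.

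Of 14 plasma cell markers, 13 were tested. Over all genes tested, 23.3% were called lower in KO and 21.1% higher without curdlan, and 26.8% lower and 24.7% higher with it. Of the plasma cell markers, 8 were lower and 1 higher in KO without curdlan, and 7 were lower and 1 higher with it. The higher one was Prdm1, a transcription factor of plasma cells that other cells also express, at 1.69 without curdlan (adjusted p = 5.97e-05) and 0.80 with it (adjusted p = 0.00807, edgeR with Benjamini-Hochberg adjustment). Sdc1, a surface protein of plasma cells, was not called (-0.35 without curdlan and -0.56 with it). Mzb1, an endoplasmic reticulum protein of antibody-secreting cells, lay at the other end, with no read in any KO library and 843 to 1664 reads in each WT library. Their sum was 821 to 867 CPM in unstimulated KO and 913 to 964 CPM in unstimulated WT, and with curdlan 823 to 1064 CPM in KO and 1243 to 1274 CPM in WT. Most of that sum comes from genes such as Xbp1 and Irf4 that dendritic cells also express. Of 12 genes of B cell precursors and rearrangement, 6 were tested. Beside the all-gene shares above, 3 of them were higher and 1 lower in unstimulated KO, with 1 in each direction with curdlan. Their summed level was 247 to 310 CPM in KO with curdlan and 187 to 208 CPM in WT with curdlan, and 228 to 299 CPM in unstimulated KO against 163 to 176 CPM in unstimulated WT. Dntt, the template-independent polymerase of rearrangement, had 1 read, in KO curdlan 4. Rag1, a subunit of the recombinase, had at most 1 read in any library. Of 18 genes of B cell receptor signalling, which myeloid cells share in part and which include Cd79a and Cd79b, 7 were higher and 6 lower in KO with curdlan, and 10 were higher and 5 lower without. The same all-gene shares stand beside these counts.

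**Figure D3:**
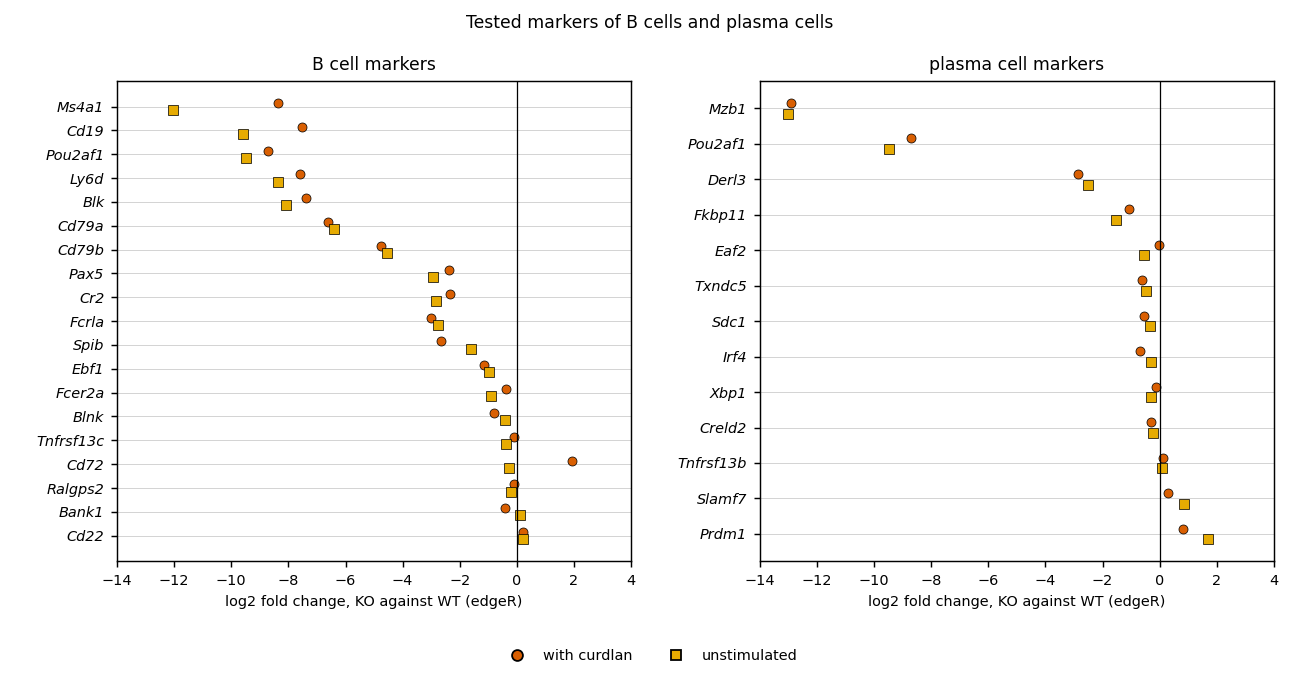
Log2 fold change of KO against WT by edgeR (horizontal axis) for each of the 19 tested B cell markers and the 13 tested plasma cell markers (vertical axis), with curdlan (circles) and unstimulated (squares). The B cell markers spread from -12.05 (Ms4a1) to 0.23 (Cd22) in unstimulated cells, and among plasma cell markers Mzb1 lies at -13.02 and Prdm1 at 1.69. Mzb1 had no KO read, so its value comes from the fit and is not a measured fold.

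The V genes, which encode most of the antigen-binding part of a chain, held 54 reads over the 6 KO libraries and 45936 over the 6 WT libraries. Of the 75 V genes, 13 had any KO read and 6 of these had reads in 1 KO library only. Per library 6, 3 and 2 V genes were seen in KO with curdlan and 2, 6 and 6 in unstimulated KO. In WT 74, 75 and 74 were seen with curdlan and 75, 75 and 74 without. Nearly every V gene of the set was thus read in each WT library, and few were read in any KO library.

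The heavy-chain V genes led with Ighv6-3 (chromosome 12, 114391712 to 114392169). It had 4 reads over the KO libraries, and in WT it measured 18.4, 13.5 and 14.9 CPM with curdlan and 18.1, 14.6 and 14.6 CPM without. The ratio of WT to KO was 932 with curdlan (counting interval 258 to 7697) and 1164 without (322 to 9616). Ighv3-6 had no KO read and was at least 508-fold lower in KO with curdlan and at least 670-fold lower without. Ighv7-1 had no KO read either, and its bounds were 129-fold with curdlan and 142-fold without. Ighv1-18 had 1 KO read, in KO unstimulated 2.

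Ighv6-6 was the heavy V gene with the most KO reads. It had 4, 0 and 0 reads in KO with curdlan and 0, 8 and 1 without, so that 12 of its 13 reads lay in the libraries numbered 2. In WT it measured 6.17, 9.41 and 4.42 CPM with curdlan and 4.97, 10.6 and 5.27 CPM without. The libraries numbered 2 were the highest in WT too. A number shared between the genotypes is not stated to mark a shared animal or day.

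Among kappa V genes, Igkv2-137 had 5 reads over the KO libraries, and in WT it measured 6.64, 4.21 and 3.93 CPM with curdlan and 6.28, 4.71 and 4.18 CPM without. Igkv3-7 had no KO read and was at least 170-fold lower in KO with curdlan and at least 224-fold lower without. Igkv8-30 had 1 KO read, and Igkv4-68 and Igkv4-57-1 had none. The 19 Igkv4 genes, the largest family of the set, held no KO read and 8702 WT reads. Igkv8-27 had 8 KO reads, all in KO curdlan 4, the library that also held most Ighg2b reads of KO.

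Past these, the members with the largest fitted differences were all without a read in the KO group concerned. In unstimulated cells Igkv13-84 was at least 176-fold lower in KO, Igkv8-21 at least 144-fold and Igkv4-57 at least 142-fold. Ighj4 followed at 104-fold, Igkv4-80 at 95.6-fold, Igkj5 at 86.7-fold and Igkv4-70 at 86-fold, all as least values. Igkv4-79 stood at 82.3-fold, Igkv6-20 at 80-fold and Ighj1 at 78.7-fold by the same bound. With curdlan the corresponding genes were Igkv13-84 (at least 127-fold lower), Igkv6-13 (110-fold), Igkv8-21 (109-fold), Igkv4-57 (106-fold) and Ighv4-1 (83.5-fold). Igkv4-80 (79.3-fold), Igkv4-70 (73.8-fold), Igkj5 (67.5-fold), Igkv6-20 (61.5-fold) and Igkv4-91 (60.2-fold) completed them. Over all 75 members with no read in unstimulated KO the bound ran from 1.82-fold to 3566-fold with a median of 33.5-fold. Over the 74 with no read in KO with curdlan it ran from 1.31-fold to 2862-fold with a median of 29-fold. The bound grows with the WT level, so its order follows abundance in WT.

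The 3 lambda V genes had no read in any KO library. Iglv1 (chromosome 16, 19085017 to 19085500) measured 11.8, 12.5 and 10.6 CPM in WT with curdlan and 11.3, 11.1 and 11.5 CPM without. Iglv2 measured 4.53, 4.25 and 3.62 CPM with curdlan and 3.75, 3.75 and 4.01 CPM without. Iglv1 took 69.1% to 72.5% of lambda V reads in each WT library, so this split hardly varied. The sources used here do not say how reads matching both genes were treated, and the closeness of the pair leaves their split uncertain. Over the last 250 positions of the aligned coding sequences they were 97.2% identical and differed at 7, shown in capitals (GENCODE release M21, GRCm38, 5′ to 3′ along the coding strand, with the gene's position).
Iglv1 (chr16:19085017-19085500, minus strand): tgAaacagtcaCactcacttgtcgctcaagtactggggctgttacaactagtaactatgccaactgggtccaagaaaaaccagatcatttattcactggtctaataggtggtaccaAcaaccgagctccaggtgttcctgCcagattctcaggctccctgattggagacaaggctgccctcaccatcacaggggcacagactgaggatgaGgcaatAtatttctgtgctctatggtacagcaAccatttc
Iglv2 (chr16:19260401-19260859, minus strand): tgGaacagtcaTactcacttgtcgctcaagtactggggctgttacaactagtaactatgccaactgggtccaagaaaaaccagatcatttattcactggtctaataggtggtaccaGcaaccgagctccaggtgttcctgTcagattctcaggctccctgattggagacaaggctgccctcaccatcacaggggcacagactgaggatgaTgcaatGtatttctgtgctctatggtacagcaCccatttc

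Among the 72 V genes with an annotated coding sequence, 10 were at least 95% identical to another member and 27 at least 90%. The median identity to the nearest member was 85%. Values of single V genes in such groups are uncertain to the extent that reads could be shared. The kit does not mark strand, so reads from an overlapping antisense transcript would be counted as well.

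Within WT the 6 libraries did not use the V genes alike, and the differences recurred between states in libraries of the same number. Numbers are those of the count table. The authors' comparison table holds the same counts under other numbers for the WT curdlan libraries, giving 4, 1 and 2 for those called 1, 2 and 4 here. Igkv4-57-1 took 11.2%, 2.8% and 1.84% of kappa V reads in WT libraries 1, 2 and 4 with curdlan and 11.7%, 2.23% and 2.23% without. WT library 1 was far above the others in both states, which were sequenced on different lanes. Its neighbour Igkv4-57 ran the other way in level. It measured 1.5, 3.77 and 2.82 CPM with curdlan and 1.7, 3.76 and 3.49 CPM without, lowest in library 1 both times. The pair is printed over the last 250 aligned coding positions, where it was 89.2% identical, with the 27 differing positions in capitals, among them the 6 bases that Igkv4-57 lacks (same source and orientation).
Igkv4-57-1 (chr6:69544359-69544907, minus strand): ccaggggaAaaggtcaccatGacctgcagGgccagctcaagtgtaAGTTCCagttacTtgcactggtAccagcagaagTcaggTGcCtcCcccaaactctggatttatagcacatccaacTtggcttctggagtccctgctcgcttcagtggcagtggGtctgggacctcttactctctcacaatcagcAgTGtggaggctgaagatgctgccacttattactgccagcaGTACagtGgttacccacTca
Igkv4-57 (chr6:69575975-69576500, minus strand): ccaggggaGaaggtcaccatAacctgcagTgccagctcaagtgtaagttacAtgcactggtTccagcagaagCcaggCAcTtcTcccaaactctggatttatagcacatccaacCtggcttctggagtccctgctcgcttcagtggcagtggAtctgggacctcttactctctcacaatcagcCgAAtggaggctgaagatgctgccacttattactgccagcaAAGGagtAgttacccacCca

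Of 57 V genes with at least 100 WT reads, 12 had a highest share at least 3 times the lowest among unstimulated WT libraries. In 12 of these 12 the same library number was highest with curdlan. Library 1 was highest for 6, library 2 for 2 and library 4 for 4. Igkv1-88 lay at 0.079%, 1.17% and 1.95% of kappa V reads with curdlan and at 0.076%, 1.28% and 1.64% without, lowest in library 1. Igkv5-48 lay at 4.32%, 0.782% and 0.991% with curdlan and at 4.46%, 0.782% and 1.02% without, highest in library 1. Igkv12-46 was highest in library 2, at 2.11% with curdlan and 1.87% without, and Igkv13-84 in library 4, at 7.08% with curdlan and 8.09% without. Across all 57 genes the same number was highest in both states for 43.

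**Figure D4:**
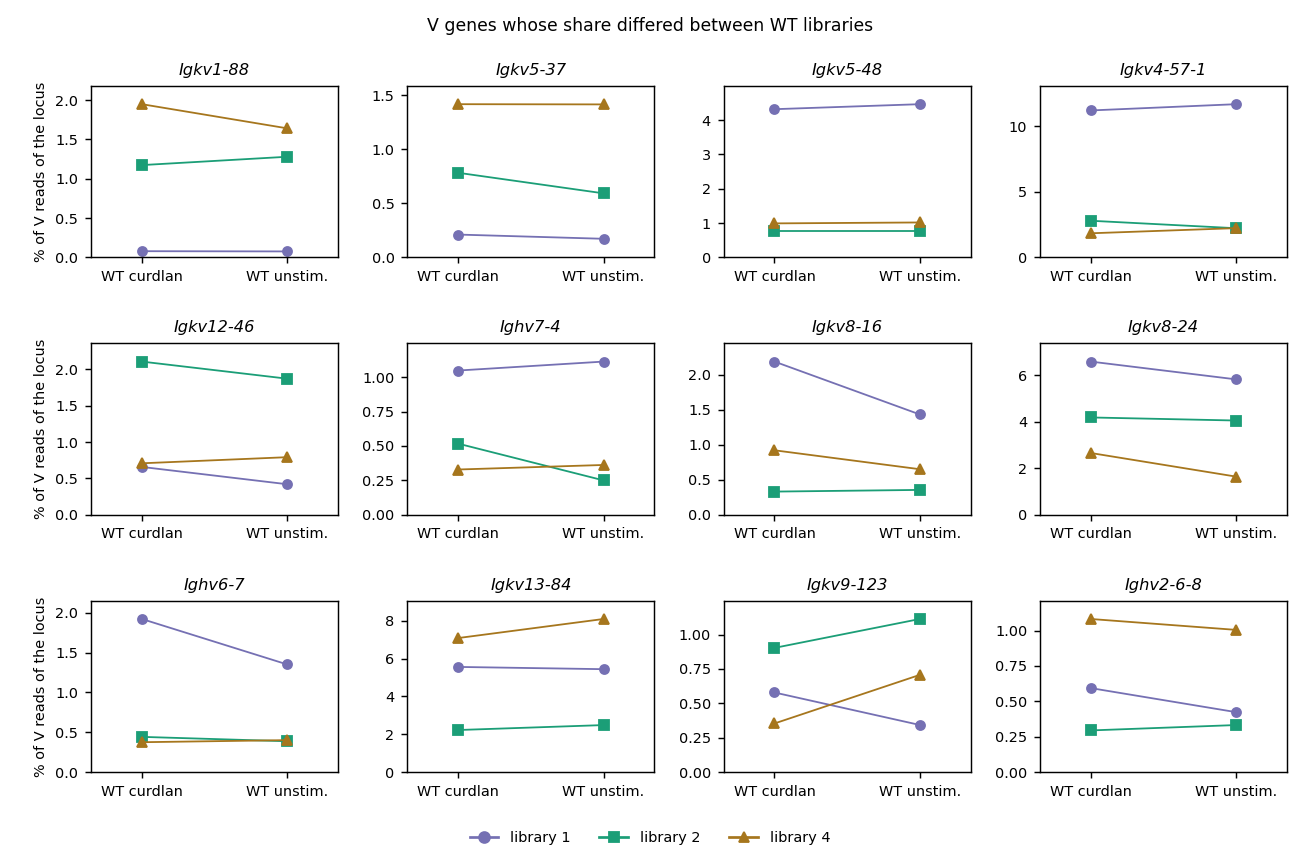
Share of the locus's V reads in percent (vertical axes, each from 0) for the 12 V genes whose share differed at least 3-fold between unstimulated WT libraries, in WT with curdlan and WT unstimulated (horizontal axis), 1 line per library number. The library that is highest without curdlan is also the highest with curdlan in each of the 12 panels.

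The whole profile of V shares showed the same recurrence, as a description over 57 genes that share libraries and read depth. Between the curdlan and the unstimulated library of the same number, Pearson's r was 0.982 for number 1, 0.986 for number 2 and 0.965 for number 4. Between states and different numbers it ran from 0.729 to 0.915. Libraries of numbers 2 and 4 were closer to each other than to number 1. Constant regions recurred too, with the same WT number highest in both states for 8 of the 8 constant-region genes and Jchain, and the order of the 3 numbers the same for 6.

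The most read heavy V gene was the same in all 6 WT libraries, and the most read kappa gene was not. Ighv6-3 led the heavy V genes in each, with 33%, 24.1% and 36.6% of heavy V reads with curdlan and 33.6%, 24.3% and 34% without. The 5 most read of the 18 heavy V genes held 86.8% to 89.6% of heavy V reads in every WT library. The 5 most read of the 54 kappa V genes held 32.6% to 38.5% of kappa V reads. With such unlike numbers of genes, the 2 shares cannot be set against each other. The count table also holds only 79 of the 218 V genes of GENCODE release M21, so ranks and shares are among those present. The most read kappa gene was Igkv4-57-1 in library 1 and Igkv3-7 in library 2 in both states. In library 4 it was Igkv4-68 with curdlan (7.54%, Wilson 95% interval 6.62% to 8.57%) and Igkv13-84 without (8.09%, interval 7.23% to 9.03%). These intervals cover counting error only.

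The J segments, which close the variable region, held 2 reads in KO, both in KO curdlan 2, and 3297 in WT. The KO reads fell on Ighj4 and Igkj1. In WT the group means ran from 0.0857 to 2.1 CPM with curdlan and from 0.0908 to 2.15 CPM without. The J transcripts of the 4 heavy and 5 kappa segments are printed from GENCODE release M21 (GRCm38, 5′ to 3′ along the coding strand; the gene models of Ighj2, Igkj2 and Igkj5 reach further than the J transcript), because their reads come from such short stretches. Capitals mark the 4 codons that stand where most J segments encode tryptophan or phenylalanine and glycine, then any residue and another glycine.
Ighj1 (chr12:113429781-113429833, minus strand): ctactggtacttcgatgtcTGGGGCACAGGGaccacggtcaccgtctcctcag
Ighj2 (chr12:113429468-113429515, minus strand): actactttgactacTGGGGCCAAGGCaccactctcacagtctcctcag
Ighj3 (chr12:113429085-113429132, minus strand): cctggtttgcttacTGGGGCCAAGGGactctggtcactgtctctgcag
Ighj4 (chr12:113428514-113428567, minus strand): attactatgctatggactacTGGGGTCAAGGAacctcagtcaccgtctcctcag
Igkj1 (chr6:70722562-70722599, plus strand): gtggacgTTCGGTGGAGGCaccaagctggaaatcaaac
Igkj2 (chr6:70722916-70722954, plus strand): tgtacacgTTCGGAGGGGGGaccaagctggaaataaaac
Igkj3 (chr6:70723223-70723260, plus strand): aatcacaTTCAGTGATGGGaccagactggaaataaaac
Igkj4 (chr6:70723548-70723585, plus strand): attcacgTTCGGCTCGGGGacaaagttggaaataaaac
Igkj5 (chr6:70723886-70723923, plus strand): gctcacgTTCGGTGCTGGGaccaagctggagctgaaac

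Igkj3, which does not encode the earlier of those glycines and is known in mouse as a non-functional segment, had the fewest reads of the 9, with 31 over all libraries. Ighj2 had 80, Igkj4 had 205 and Igkj1 had 339. Ighj4 led with 720, followed by Igkj5 with 592 and Ighj1 with 527. The segments differ in length and reads reaching into V or constant regions can be assigned elsewhere, so these totals are not levels of use.

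Curdlan left the immunoglobulin genes of WT cells without a called change in the fit of group means, which does not pair libraries by number. Of the 77 tested, 0 passed in that fit by edgeR (Benjamini-Hochberg adjusted), where 19.8% of all genes did, and 1 had an unadjusted p under 0.05. With the library number as a replicate block Iglc2 passed, as given below. DESeq2 also called 0. The median log2 fold change of the 77 was -0.05, against -0.03 over all genes tested, and they ran from -0.45 to 0.46. Ighm had -0.01 (SE 0.16), Jchain -0.05 (SE 0.19), Igkc -0.09 (SE 0.28) and Ighg3 -0.04 (SE 0.13). A p that misses the threshold does not show that the groups were alike.

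The gene at an unadjusted p under 0.05 was Iglc2. Its log2 fold change, curdlan against unstimulated WT, was -0.37 (SE 0.15, adjusted p = 0.101, edgeR with Benjamini-Hochberg adjustment), and its 3 curdlan libraries all lay under the 3 unstimulated ones. Of the 77 genes 2 showed that separation, where 23.4% of all genes did. The other was Ighj1, at 1.5, 1.55 and 1.38 CPM with curdlan and 1.63, 1.63 and 1.57 CPM without. With the library number as a replicate block the value of Iglc2 was -0.38 and passed (adjusted p = 0.0101), and with the numbers of the authors' comparison table its adjusted p was 0.0478. Within each number of the count table Iglc2 was lower with curdlan, at 7.4 against 9.26 CPM in library 1, 7.24 against 8.18 CPM in library 2 and 5.25 against 8.2 CPM in library 4. Iglv1 and Iglv2, the V genes of the same locus, showed no such order.

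In the libraries labelled KO, Ighm was the immunoglobulin gene with enough reads to follow under curdlan. It measured 13.9, 16.7 and 12.5 CPM with curdlan and 16.5, 22.6 and 19.1 CPM without, and the groups overlapped only between KO curdlan 4 and KO unstimulated 1. Those libraries have no partner of the same number. The log2 fold change was -0.43 (SE 0.17, adjusted p = 0.0774, edgeR with Benjamini-Hochberg adjustment), so that 0 of 77 genes passed where 28.6% of all genes did, and 1 had an unadjusted p under 0.05. Most of the 77 had no read in any KO library and could not have passed, so nothing is read from that count. With the library number as a replicate block Ighm stood at -0.66 and passed (adjusted p = 3.18e-05, and 0.028 with the other numbers), a value that rests on 2 KO pairs. Within number 2 it measured 13.9 CPM with curdlan against 22.6 CPM, and within number 5 it measured 12.5 against 19.1 CPM. DESeq2 called Ighm (-0.43, adjusted p = 0.0478) and also Igkv8-27 as higher (4.25, adjusted p = 0.0389), a call that rests on the 8 reads of KO curdlan 4.

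**Figure D5:**
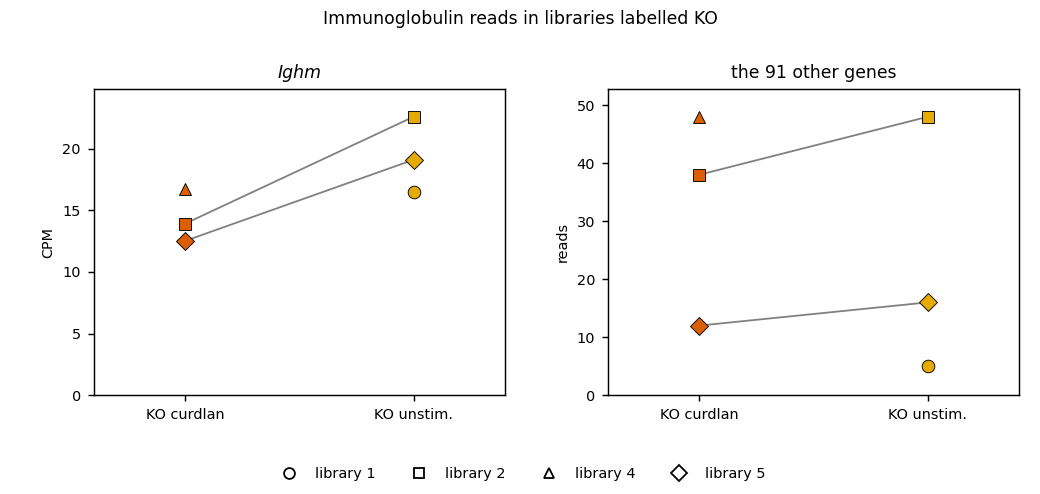
Ighm in CPM (left) and the summed reads of the 91 other immunoglobulin genes (right) in the 3 KO libraries with curdlan and the 3 unstimulated KO libraries, by library number, with lines joining equal numbers. Ighm lies lower with curdlan within numbers 2 and 5, and the other genes' reads run from 12 to 48 with curdlan and from 5 to 48 without.

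The other KO reads differed more between libraries than between states. The 91 genes besides Ighm held 38, 48 and 12 reads in KO with curdlan (libraries 2, 4 and 5) and 5, 48 and 16 in unstimulated KO (libraries 1, 2 and 5). Number 2 held 38 reads with curdlan and 48 without, and number 5 held 12 with curdlan and 16 without. Igkv12-98, with 2 reads in each KO library numbered 2 and none in any other KO library, differed by number on few reads. Ighv8-12 had 1 read in KO with curdlan and 5 in unstimulated KO, where it was seen in all 3 libraries. At this depth 1 read was worth up to 0.0276 CPM in KO. By edgeR none of the tested genes among them was called between the states.

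The curdlan response of the immunoglobulin genes was set against genotype in the difference of the responses, KO minus WT. By edgeR, Benjamini-Hochberg adjusted, 0 of 77 genes passed, where 5.21% of all genes did, and 0 had an unadjusted p under 0.05. DESeq2 called 0 as well. The difference was -0.42 for Ighm (SE 0.23, adjusted p = 0.279), with -0.43 in KO and -0.01 in WT. With the library number as a replicate block it was -0.64 and passed (adjusted p = 0.000812). With the WT curdlan numbers of the authors' comparison table the block gave -0.64 and did not pass (adjusted p = 0.138). Those numbers join WT libraries whose profiles of V shares correlated at r of 0.749, 0.768 and 0.915. Equal numbers of the count table gave 0.982, 0.986 and 0.965. A block over libraries that do not belong together can miss a difference, so nothing is read from that miss alone.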

How the data were processed

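The authors deposited raw read counts per gene. The submitters' processing notes name featureCounts 1.4.6, TopHat2 (version given as 2.4.2a), SAMtools 1.2, FastQC 0.11.1 and DESeq2 1.8.2. Genome build, annotation, strand setting and the handling of multi-matching reads were not given in the sources used here. A further table that the authors deposited gives, for KO against WT with curdlan, log2 fold changes with their standard errors. The same deposited table holds p-values and adjusted p-values. Gene symbols come from it. A table named an interaction and 18 columns of values per library were not used. Library numbers are those of the count table's columns, which the numbers in the sample titles do not follow. The comparison table repeats the raw counts of the curdlan libraries. There all 37991 genes matched the count table under the same number in KO, and in WT the libraries numbered 1, 2 and 4 in the count table stand as 4, 1 and 2.

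Members and marker lists were chosen with earlier results of these data known. The filter on low counts (filterByExpr in edgeR) left 18981 genes. Libraries were scaled by TMM, and CPM uses the resulting effective sizes. Tests were edgeR 4.0.16 quasi-likelihood F-tests (R 4.3.3, two-sided) in 1 fit of 12 libraries with 4 group means, Benjamini-Hochberg adjusted over all genes, threshold 0.05. The script was tested on simulated data. DESeq2 1.42.0 was an alternative. Ratios of summed reads carry exact 95% intervals for counting error, which leave out the spread between libraries. A group without a read was set to a floor of 3 reads over the group. Levels per kilobase use the summed exon length of GENCODE mouse release M21, matched by Ensembl identifier for all 92 genes, and 2 of them carry another name there. Of 432 immunoglobulin genes in that release, 112 are in the count table, and the others were not analysed here.

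Named genes are the constant-region genes, Jchain, up to 5 V genes per locus by mean CPM, and in each comparison the 10 members next in size of difference. Genes given for their KO reads or for their share in WT were chosen after their values were seen. No libraries were merged, since each pair within a group differed beyond counting noise (chi-square per degree of freedom 9.92 to 84.1). Deviations from group means over all tested genes correlated between same-numbered libraries of both states, with r of 0.551, 0.395 and 0.205 in WT and 0.374 and 0.713 in KO, so the numbers were taken to pair the libraries. Different numbers gave -0.446 to 0.117 in WT, the pairs of the comparison table's numbers among them (-0.225, -0.352 and 0.117). In KO they gave -0.621 to 0.357, and curdlan 4 with unstimulated 2 (0.357) and curdlan 2 with unstimulated 1 (0.326) came close to the lower same-numbered value. In KO the numbers 2 and 5 have a partner and 1 and 4 have none. A motif count in V gene promoters was not made, as promoter sequences of the V genes were not used here.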

Additional observations from a re-analysis of the deposited data

Results flagged for a closer look

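The curdlan response of Ighm differed between genotypes in the fit with the library number as a replicate block, by a log2 value of -0.64 for KO minus WT (adjusted p = 0.000812, edgeR with Benjamini-Hochberg adjustment). In that fit Ighm stood at -0.66 in KO, lower with curdlan in both numbers that have a partner, and at -0.01 in WT (adjusted p = 0.889). Without the block the difference was -0.42 and did not pass (adjusted p = 0.279). The KO level of Ighm was 12.5 to 16.7 CPM with curdlan and 16.5 to 22.6 CPM without, and the block rests on 2 KO pairs. With the WT curdlan numbers of the authors' comparison table, a setting chosen after seeing the data, the block gave -0.64 and did not pass (adjusted p = 0.138). Those numbers join WT libraries with lower correlation of V shares than equal numbers of the count table, as given above. Groups of 3 libraries were not searched for single libraries that stand apart.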

How the results depend on the processing

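The 77 calls of KO against WT were all made under each scaling, without the filter, in DESeq2 and with the replicate block. Because the members were chosen by reads that came from WT, nothing is read from these counts or from those of KO against WT that follow. The shares of all genes called under these settings are not given here. With each library in turn left out 76 to 80 members were called lower in unstimulated cells and 77 to 80 with curdlan, of 78 to 81 tested. Igkv1-88, Ighv5-2 and Ighv6-7 were not called in some of these fits (adjusted p 0.0504 to 0.0925). In fits of the groups compared all 71 members tested in unstimulated cells and all 64 with curdlan were called. A block with the WT curdlan numbers of the authors' comparison table was added after seeing the data. It gave 75 calls in each state, 1 for curdlan in WT (Iglc2), 1 in KO (Ighm) and 0 for the difference of the responses. For the curdlan contrasts, where 0 members passed, 1 passed in WT when libraries were scaled by totals alone (Iglc2, -0.50) and 1 with the replicate block (Iglc2). In KO 1 passed with totals alone (Ighm, -0.63), 1 with the replicate block (Ighm, -0.66), 2 in DESeq2 and 0 to 1 with a library left out, the 1 being Igkc as higher without KO unstimulated 2 (2.93, adjusted p = 0.0381). For the difference of the responses 1 passed with the replicate block, and the block changed no other call. Leaving out a library moved the Ighm value in KO between -0.55 and -0.31. The small WT values changed sign. With a library left out, Ighm ran from -0.14 to 0.13, Igkc from -0.22 to 0.065, Jchain from -0.20 to 0.10, Ighg1 from -0.30 to 0.33, Ighg2b from -0.33 to 0.28, Ighg2c from -0.34 to 0.25 and Ighg3 from -0.15 to 0.061. Ighm was 0.009 in a fit of the groups compared, and Ighg1 was -0.12 with totals alone and -0.025 with upper-quartile factors. None of these passed, and the cause was not tested. Asking for 3 reads rather than 1, the mean number of V genes seen per library was 1 in KO with curdlan (3.67 at 1 read), 0.667 in unstimulated KO (4.67), 71 in WT with curdlan (74.3) and 73 in unstimulated WT (74.7). Group means of summed CPM held within their spread under each alternative. In KO every member but Ighm held 0 to 22 reads per library.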
